A study of Mus musculus with 6 samples.

Results

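The contractile apparatus of smooth muscle was described here through 31 genes in RNA from the mouse proximal colon. They were chosen by name, with earlier results of these data known. All 31 were measured, among 18193 genes on the array. Each gene was read from the probe set (the group of probes designed against 1 transcript) that carried its symbol alone and had the highest mean over the 6 arrays. The mutants lacked Hnf4a, which encodes a nuclear receptor, in the epithelium of the gut, since both Hnf4a alleles were flanked by loxP sites and Cre was driven by the Villin promoter. The driver is epithelial, and the Cre is not designed to reach smooth muscle cells. The RNA came from a tissue of mixed cells, so members that other cells also use were not read in muscle cells alone. Mutants 1, 2 and 3 were compared with controls 1, 2 and 3, littermates labelled wildtype, for which the sources used here do not give whether they carried a floxed allele or Cre. All 6 mice were 1 year old, were kept free of pathogens, received ketamine and xylazine before they were killed, and gave 1 array each.

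In smooth muscle, calcium activates myosin light chain kinase, which phosphorylates the regulatory light chain of myosin and lets myosin pull on actin. A phosphatase reverses this step, and calponin, caldesmon and related proteins bind the thin filament. Dense bodies and the plaques under the membrane take the place of the Z-discs of striated muscle. Myocardin and serum response factor switch on many of these genes together through a sequence called the CArG box. In the colon these genes are used in the circular and longitudinal layers of the muscularis and in the thin muscularis mucosae, while pericytes and vessel walls use part of the set.

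Several facts of the arrays touch the values below. The median log2 signal of an array lay between 5.43 and 5.50 in the mutants and between 5.49 and 5.53 in the controls. Hnf4a itself had a log2 signal between 10.09 and 10.17 in the mutants and between 11.97 and 12.23 in the controls. Mutants 2 and 3 were labelled male, and mutant 1 and the controls female, but Xist, the RNA of the inactive X chromosome, was between 5.03 and 5.32 in all 3 mutants and between 9.94 and 10.96 in the controls. Y-linked Eif2s3y was between 7.85 and 8.12 in the mutants and between 2.75 and 3.16 in the controls. By their RNA the mutants were all male, the 1 labelled female included, and the controls all female, so sex and genotype cannot be told apart. Y-linked genes (3 measured) gave 2.75 to 4.01 in the controls, which served as the level of RNA that is absent.

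The promoters of 5 members are shown because they hold the CArG box (CC, then 6 letters that are each A or T, then GG) and because these genes stand at both ends of the values below: Myl9 differed most between mutant 2 and the other mutants, Vcl and Srf least, and Fhl1 and Ldb3 were the lowest members in mutants 1 and 3. Each window runs 5′ to 3′ on the gene's strand, 250 bases before to 50 bases after a transcription start, from RefSeq on build GRCm38.p6, with the CArG boxes in capitals. The windows are chr2:156775214-156775513 on the plus strand for Myl9, chr14:20929148-20929447 on the plus strand for Vcl, chr17:46556113-46556412 on the minus strand for Srf, chrX:56779433-56779732 on the plus strand for Fhl1, and chr14:34588632-34588931 on the minus strand for Ldb3.
Myl9: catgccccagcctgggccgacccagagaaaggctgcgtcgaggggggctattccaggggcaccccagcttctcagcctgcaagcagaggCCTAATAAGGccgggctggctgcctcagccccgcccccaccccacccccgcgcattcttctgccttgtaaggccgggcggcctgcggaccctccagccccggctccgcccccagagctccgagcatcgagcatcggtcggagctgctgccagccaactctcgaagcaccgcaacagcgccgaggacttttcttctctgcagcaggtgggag
Vcl: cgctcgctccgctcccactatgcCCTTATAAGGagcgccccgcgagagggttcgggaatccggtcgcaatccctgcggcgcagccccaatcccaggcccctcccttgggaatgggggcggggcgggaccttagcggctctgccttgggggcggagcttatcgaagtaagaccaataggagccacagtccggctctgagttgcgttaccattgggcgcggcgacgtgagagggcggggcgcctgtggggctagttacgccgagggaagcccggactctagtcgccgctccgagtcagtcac
Srf: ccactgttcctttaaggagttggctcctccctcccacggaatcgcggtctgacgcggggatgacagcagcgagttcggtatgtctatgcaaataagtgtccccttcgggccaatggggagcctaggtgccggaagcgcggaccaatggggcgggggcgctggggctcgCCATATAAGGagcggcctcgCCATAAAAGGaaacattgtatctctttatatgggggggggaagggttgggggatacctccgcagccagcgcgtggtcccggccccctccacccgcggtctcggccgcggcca
Fhl1: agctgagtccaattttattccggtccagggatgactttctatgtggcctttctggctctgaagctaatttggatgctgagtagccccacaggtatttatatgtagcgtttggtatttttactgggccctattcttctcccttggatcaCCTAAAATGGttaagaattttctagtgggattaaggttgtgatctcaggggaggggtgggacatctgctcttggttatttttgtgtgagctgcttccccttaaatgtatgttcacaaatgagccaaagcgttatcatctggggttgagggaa
Ldb3: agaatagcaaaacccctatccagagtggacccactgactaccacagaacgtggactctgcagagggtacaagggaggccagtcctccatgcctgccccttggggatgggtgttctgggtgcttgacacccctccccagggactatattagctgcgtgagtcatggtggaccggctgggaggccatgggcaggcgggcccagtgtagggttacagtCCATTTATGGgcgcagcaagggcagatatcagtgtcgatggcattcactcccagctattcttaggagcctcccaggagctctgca

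Counted from the start, with negative positions before it, the first base of the box lay at -161 in Myl9, -227 in Vcl, -102 in Fhl1 and -35 in Ldb3. Fhl1 had a second start with no box in its window, and Ldb3 a second start from which the same box lay at -109. Srf, the factor that binds this box, had a pair of boxes in its own promoter, at -82 and -62. Dmd, whose window is not shown, had a box at -98 before 1 of its starts. Promoter windows were available for 27 of the 31 members, but not for Actg2, Myh11, Myocd and Tagln. A CArG box was found in 6 of these 27 (22.2%), against 488 of all 27025 genes with a window (1.81%). The pattern is its own reverse complement, so a match on either strand is the same match. TATAAA, searched on the gene's strand only, was in 3 of the 27 (11.1%) and in 9.77% of all genes. These counts describe exact matches to the letters in the windows, so boxes outside the windows or with other letters were not counted. The ranges with and without a box overlapped. Mutant 2 minus the mean of mutants 1 and 3 ran between -4.14 and 0.09 on the log2 scale over the 6 members with a box (median -1.55) and between -3.96 and -0.72 over the 21 without (median -2.73).

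Mutant 2 stood apart from the other 5 arrays. Its signal was the lowest of the 6 arrays for 30 of the 31 members, as it was for 15.7% of all genes. The exception was Srf. It lay at least 1 log2 unit under the mean of mutants 1 and 3 for 26 of the 31, as it did for 579 genes in all (3.18%), and the median difference was -2.65 over the members and 0.05 over all genes. Of the 50 genes with the lowest such difference on the whole array, 10 were members, and of the lowest 500, 25 were. The members were chosen with earlier results of these data known, so these counts and ranks describe the list and do not test it. Summed over the 31 members on the linear scale, the signal was 58650 in mutant 1, 8659 in mutant 2 and 52840 in mutant 3, against 68740, 71800 and 70570 in controls 1, 2 and 3. Mutant 2 thus had 12.3% of the mean sum of the controls, and mutants 1 and 3 had 83.3% and 75.1%. In RNA from a tissue of mixed cells, fewer muscle cells and less of these RNAs per muscle cell cannot be told apart. Mutant 2 is a single array, so its values are a description with no test, and each comparison is given below with and without it.

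**Figure D1:**
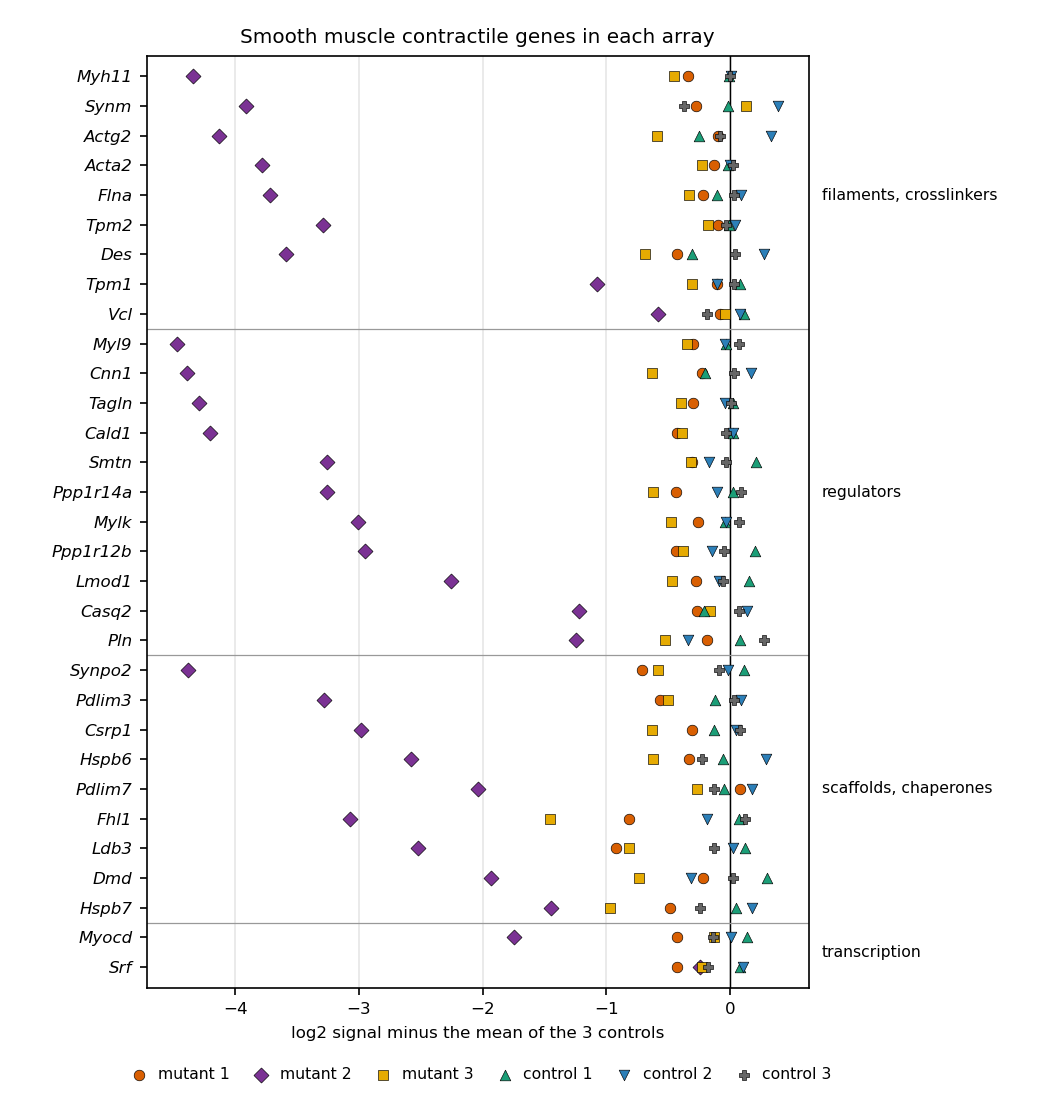
Log2 signal of each of the 31 member genes in each array, minus the mean of the 3 controls (horizontal axis), with genes grouped by role and 1 symbol per array. Mutant 2 (diamonds) lies far to the left for most members, down to -4.47 for Myl9, and at -0.24 for Srf, while mutants 1 and 3 lie between -1.46 and 0.13.

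The actins and the myosin heavy chain form the filaments that slide. Acta2, smooth muscle alpha-actin, had a log2 signal of 12.97, 9.32 and 12.87 in mutants 1, 2 and 3, against 13.08, 13.10 and 13.12 in controls 1, 2 and 3. Actg2, the gamma-actin of visceral muscle, had 11.90, 7.88 and 11.41 in the mutants, against 11.75, 12.34 and 11.93 in the controls. Myh11, the smooth muscle myosin heavy chain, had 11.95, 7.95 and 11.85 in the mutants, against 12.29, 12.30 and 12.29 in the controls. For Acta2 and Myh11 the 3 mutants were all under the 3 controls and the controls lay close together (SD 0.02 and 0.01, n = 3), while for Actg2 mutant 1 lay inside the range of the controls. In mutant 2 the signal of Acta2 was 7.29%, of Actg2 5.73% and of Myh11 4.92% of that gene's control mean, taken as the mean of the log2 signals.

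The other filament proteins spread more widely. Des, encoding desmin, the intermediate filament of muscle, had a log2 signal of 10.90, 7.74 and 10.65 in mutants 1, 2 and 3, against 11.03, 11.60 and 11.38 in controls 1, 2 and 3. All 3 mutants were under the controls, mutant 1 by a small step. Synm, encoding synemin, which joins desmin to the membrane, had 8.99, 5.35 and 9.39 in the mutants, against 9.24, 9.66 and 8.89 in the controls, so that mutants 1 and 3 overlapped the controls and mutant 2 did not. Tpm2, a tropomyosin that lies along the actin filament, and Flna, the actin crosslinker filamin A, were at 10.2% and 7.61% of the control mean in mutant 2. A second tropomyosin gene, Tpm1, which many cell types use, was at 47.3%. Vcl, encoding vinculin, which ties actin to adhesion sites in nearly all cells, had log2 signals of 10.01, 9.51 and 10.05 in the mutants, against 10.20, 10.16 and 9.89 in the controls. Mutant 2 was the lowest array for Vcl too, at 67.1% of the control mean, but mutants 1 and 3 lay within the range of the controls.

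The kinase and its substrate, which control contraction, were lowest in mutant 2 as well. Mylk, the myosin light chain kinase, had a log2 signal of 11.95, 9.19 and 11.73 in mutants 1, 2 and 3, against 12.17, 12.18 and 12.27 in controls 1, 2 and 3. Myl9, the regulatory light chain it phosphorylates, had 12.05, 7.88 and 12 in the mutants, against 12.32, 12.31 and 12.42 in the controls. In both genes all mutants were under all controls, and Myl9 had the largest difference between mutant 2 and the mean of mutants 1 and 3 of any member, -4.14, or 17.6-fold lower. On the phosphatase side, Ppp1r12b, a targeting subunit of myosin phosphatase, was at 12.9% of the control mean in mutant 2, and Ppp1r14a, which inhibits that phosphatase, at 10.4%.

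The proteins that bind the thin filament included the next largest differences. Cnn1, calponin, had a log2 signal of 11.42, 7.25 and 11.01 in mutants 1, 2 and 3, against 11.44, 11.82 and 11.68 in controls 1, 2 and 3. Tagln, encoding transgelin or SM22, had 12.28, 8.29 and 12.18 in the mutants, against 12.60, 12.55 and 12.59 in the controls. For both the mutants lay under all controls, for Cnn1 with mutant 1 just under the lowest control. Cald1, caldesmon, was at 5.44% of the control mean in mutant 2.

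Further actin-binding genes were lower in mutant 2 by smaller amounts. Smtn, smoothelin, found in contractile smooth muscle, had a log2 signal of 9.67, 6.72 and 9.66 in mutants 1, 2 and 3, against 10.19, 9.81 and 9.95 in controls 1, 2 and 3. Lmod1, leiomodin, which starts new actin filaments, had 7.81, 5.82 and 7.61 in the mutants, against 8.23, 7.99 and 8.02 in the controls. The mutants did not overlap the controls for either gene. Among the genes of calcium storage, Pln, phospholamban, the brake on the calcium pump, had 6.81, 5.74 and 6.47 in the mutants, against 7.07, 6.65 and 7.27 in the controls, and mutant 1 lay inside the control range. Casq2, calsequestrin, which holds calcium in the store, was at 42.9% of the control mean in mutant 2, and Pln at 41.9%.

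The scaffolds of dense bodies and membrane plaques and the small heat shock proteins formed the third group. Synpo2, which bundles actin at dense bodies, had a log2 signal of 9.78, 6.10 and 9.90 in mutants 1, 2 and 3, against 10.59, 10.47 and 10.40 in controls 1, 2 and 3. Hspb7, a small heat shock protein of muscle, had 6.67, 5.71 and 6.19 in the mutants, against 7.22, 7.35 and 6.93 in the controls. In both, all 3 mutants were under the controls. In Hspb7, unlike Synpo2, mutant 2 was near mutant 3, and its difference from the mean of mutants 1 and 3, -0.72, was among the 3 smallest. The LIM proteins Pdlim3, Pdlim7 and Csrp1 were at 10.3%, 24.3% and 12.7% of their control means in mutant 2, Hspb6 at 16.7%, and Dmd, dystrophin, at 26.3%.

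Fhl1 and Ldb3 were the scaffold genes with the lowest values outside mutant 2. Fhl1, a LIM-only protein of muscle, had a log2 signal of 10.49, 8.23 and 9.84 in mutants 1, 2 and 3, against 11.37, 11.11 and 11.43 in controls 1, 2 and 3. Ldb3, which in striated muscle sits at the Z-disc, had 5.59, 3.99 and 5.69 in the mutants, against 6.62, 6.52 and 6.37 in the controls. Every mutant was well under every control in both genes on the probe sets used. On the other sets, of lower signal, mutants and controls overlapped. For Fhl1, mutant 1 had 4.98 and control 2 had 4.96 there. For Ldb3, mutant 1 had 5.48 and control 1 had 5.44 on 1 set, and mutant 2 had 4.54 and control 1 had 4.38 on another. On the set used, the value of Ldb3 in mutant 2 was within the level of Y-linked genes in the controls. No other member value on the sets used was so low, so the difference of Ldb3 in mutant 2 may be larger than measured.

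The transcription genes differed less in mutant 2 than most members. Myocd, myocardin, the muscle-restricted coactivator, had a log2 signal of 6.10, 4.78 and 6.40 in mutants 1, 2 and 3, against 6.67, 6.54 and 6.39 in controls 1, 2 and 3. Srf, serum response factor, its DNA-binding partner, which is made in most cell types, had 7.74, 7.92 and 7.93 in the mutants, against 8.24, 8.26 and 7.99 in the controls. Myocd was lowest in mutant 2, at 29.7% of the control mean, while for Srf mutant 2 was as high as mutant 3, at 84.4%. By role, the median of mutant 2 relative to the controls was -3.72 over the 9 filament and crosslinker genes, -3.26 over the 11 regulators, -2.58 over the 9 scaffold and chaperone genes and -1.0 over the 2 transcription genes.

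Mutants 1 and 3 against the 3 controls asked whether the members differed without the array low in muscle RNA. All 31 log2 fold changes were below 0, as were 42.5% of those of all genes, with a median of -0.37 over the members and 0.03 over all genes. No member passed an adjusted p of 0.05 by limma, where 53 genes fell (0.291%) and 43 rose (0.236%). Without adjustment, 17 of 31 were lower at p of 0.05 or less, against 5.61% of all genes. In 23 of 31 both mutants lay under all 3 controls, against 11.8% of all genes. Tpm1 is among the 23, though its mutant 1 and control 2 both read 12.27 after rounding. Some marker lists of other cells were lower in this comparison too. Endothelium had a median of -0.44 (6 of 6 below 0, 4 at p of 0.05 or less before adjustment). Fibroblasts and matrix had -0.42 (10 of 11 below 0, 4), enteric neurons -0.38 (9 of 10 below 0, 3) and pericytes -0.32 (5 of 6 below 0, 2). Adipocytes and interstitial cells of Cajal, with 2 genes each, had -0.76 and -0.40. Leukocytes had -0.11, striated muscle -0.05, enteric glia -0.02, epithelium 0.08 and mesothelium 0.26. None of these genes passed the adjusted test here, and their part in the members' values was not tested. The 8 members that overlapped were Actg2, Vcl, Synm, Pln, Casq2, Pdlim7, Dmd and Myocd. The members share 1 RNA sample per mouse and are not replicates of the comparison, which had 2 mutants. The p-values rest on the spread between these mice, which limma moderates across all probe sets, and they do not separate genotype from sex.

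The lowest values in mutants 1 and 3 were in the scaffold and chaperone group. Fhl1 had a log2 fold change of -1.14 (SE 0.21, 95% interval -1.65 to -0.62, limma adjusted p = 0.151), that is 45.4% of the control level. Ldb3 had -0.87 (SE 0.12, 95% interval -1.16 to -0.58, limma adjusted p = 0.0722). Hspb7 (-0.73, SE 0.19, adjusted p = 0.292) and Synpo2 (-0.65, SE 0.12, adjusted p = 0.134) came next. With limma's array weights Ldb3 alone passed, at -0.85 and an adjusted p of 0.0414. The share of all genes that passed under that setting was not counted, so this call is no result about Ldb3. Fhl1 lies on the X chromosome, as do Flna and Dmd, and the mutants were male and the controls female by their RNA. With genes of the X and Y chromosomes left out, the median of the remaining 28 members was -0.36.

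The actins, tropomyosins, myosin and thin filament proteins had smaller differences in mutants 1 and 3 on the probe sets used. Acta2 had a log2 fold change of -0.18 (SE 0.10, 95% interval -0.43 to 0.07), Tpm2 -0.14 (SE 0.10), and Myh11 -0.40 (SE 0.10, 95% interval -0.65 to -0.15, limma adjusted p = 0.284). Tagln had -0.35 (SE 0.10), Cald1 -0.41 (SE 0.10), Cnn1 -0.43 (SE 0.17), Myl9 -0.33 (SE 0.10) and Mylk -0.37 (SE 0.12). The medians by role were -0.21 for filaments, -0.37 for regulators, -0.54 for scaffolds and chaperones and -0.30 for transcription, and the difference between roles was not tested. Several of these values depended on the probe set or on 1 array. With the mean of all probe sets of a gene, Acta2 was at -0.39, Tpm2 at -0.22 and Mylk at -0.57, further from 0, while Des was at -0.27, Synpo2 at -0.39 and Ldb3 at -0.46, nearer to it. Cnn1, read from 1 probe set, was at -0.23 without mutant 3. Vcl, at -0.06 (SE 0.13), Synm, at -0.07 (SE 0.25), and Pdlim7, at -0.10 (SE 0.16), were nearest to 0.

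**Figure D2:**
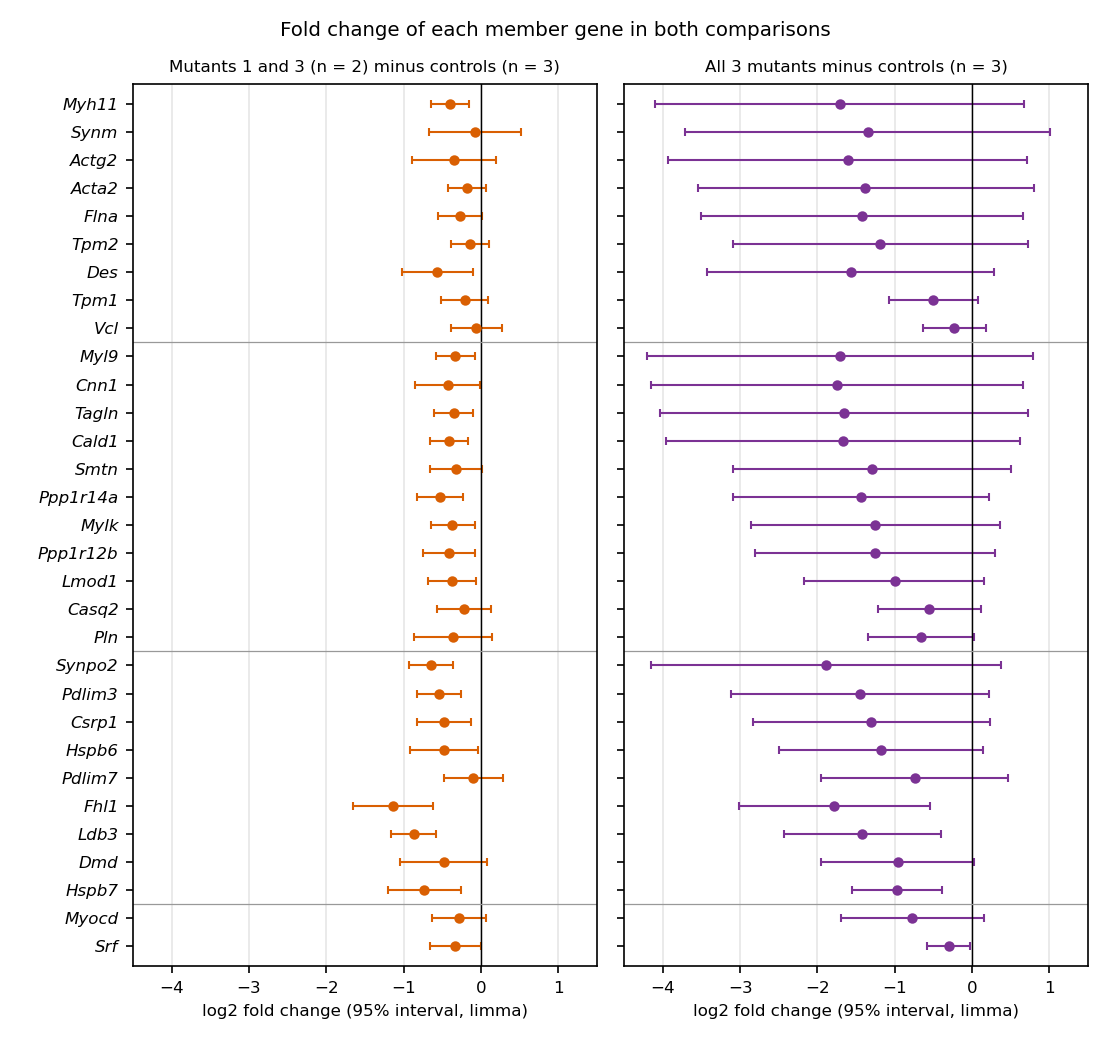
Log2 fold change of each member with its 95% interval from limma (horizontal axes), for mutants 1 and 3 minus controls on the left and all 3 mutants minus controls on the right. All points lie below 0 in both, and the intervals on the right are wide where mutant 2 differs from the other mutants, as for Myl9 with -4.21 to 0.79.

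With all 3 mutants in the comparison, the standard errors of most members were larger. All 31 log2 fold changes were again below 0, between -1.89 for Synpo2 and -0.23 for Vcl, with a median of -1.31 (0.05 over all genes), and no member passed an adjusted p of 0.05 by limma, where 72 genes fell (0.396%) and 88 rose (0.484%). Before adjustment, 4 members were lower at p of 0.05 or less, against 6.18% of all genes. They were Fhl1 (-1.78, SE 0.52, adjusted p = 0.245), Ldb3 (-1.42, SE 0.43, adjusted p = 0.258), Hspb7 (-0.97, SE 0.24, adjusted p = 0.182) and Srf (-0.30, SE 0.12, adjusted p = 0.35). The members with the largest differences in mutant 2 had standard errors near 1 log2 unit. Myl9 averaged 10.64 ± 2.39 in mutants and 12.35 ± 0.06 in controls (SD, n = 3 each), with a log2 fold change of -1.71 (SE 1.05, limma adjusted p = 0.518). In 23 of 31 members all 3 mutants were under all 3 controls, against 8.86% of all genes. These are the same 23 in which mutants 1 and 3 were, since mutant 2 was lower still or, for Srf, also under the controls. The comparisons share the controls and mutants 1 and 3.

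The other genes of smooth muscle function, from lists chosen with earlier results of these data known, held further low values of mutant 2. None of the genes in these 4 lists passed the test in either comparison by limma. Of the excitation and signalling genes, 18 of 22 were measured. At p of 0.05 or less before adjustment, 4 were lower with all mutants and 3 with mutants 1 and 3. Over all genes these shares were 6.18% and 5.61%. The median relative to the controls was -0.13 in mutant 1, -0.85 in mutant 2 and -0.20 in mutant 3. The lowest by mutant 2 minus the mean of mutants 1 and 3 was Mrvi1, a target of cyclic GMP kinase at the calcium store, at -2.66, and the highest was Chrm3, a muscarinic receptor of gut muscle, at 0.20. Chrm3 gave log2 signals of 3.78 to 4.11 over the 6 arrays, close to the level of absent RNA, so it carries little information. Gucy1a1, a subunit of the nitric oxide receptor, followed Mrvi1 at -2.61. Rhoa and Rock1, which sensitise muscle to calcium and act in all cells, differed by 0.17 and -0.21.

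The costamere and membrane anchor genes, of which 24 of 25 were measured, had medians of -0.14, -0.60 and -0.13 in mutants 1, 2 and 3. Before adjustment 3 were lower with all mutants and 7 with mutants 1 and 3, against 6.18% and 5.61% of all genes. Pgm5, a protein of dense plaques related to phosphoglucomutase, had the lowest mutant 2 difference, -3.43, followed by Sspn, sarcospan, at -3.32 and Tns1, tensin, at -3.21. Dag1, dystroglycan, had the highest at 0.21. All 13 muscle transcription genes were measured, with medians of -0.13, -0.26 and -0.02, and Foxf1, a factor of gut mesenchyme, was lowest at -2.91. Mef2c and Hand2 were at -2.39 and -2.16, while Barx1 was highest at 0.42. Without adjustment 2 of the 13 were lower and 1 higher in each comparison. Of all 18193 genes, 1124 were lower and 1822 higher with all mutants, and 1020 and 1145 with mutants 1 and 3.

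As a list, the non-muscle paralogs of the same protein families lay near the controls in all mutants. Relative to the controls, Cnn2 and Myh10 were the lowest of them in mutant 2. Tagln2 was the highest, at 0.39 in mutant 2 and 0.37 in mutants 1 and 3. In 3 paralogs all 3 mutants were above all 3 controls, as in 2636 of all 18193 genes. Of 13 listed, 12 were measured, and the median relative to the controls was 0.05, 0.04 and 0.11 in mutants 1, 2 and 3. Actb, cytoplasmic beta-actin, had a log2 signal of 14.02, 14.09 and 14.16 in mutants 1, 2 and 3, against 14.06, 14.09 and 13.93 in controls 1, 2 and 3. Mutant 2 minus the mean of mutants 1 and 3 was 0.01 for Actb, against -3.60 for its muscle relative Acta2 and -3.78 for Actg2. Myh9, a non-muscle myosin heavy chain, was highest in this list at 0.04, and Cnn2, a calponin of non-muscle cells, lowest at -1.37, followed by Myh10 at -0.88. Without adjustment none of the 12 was lower and 1 was higher in each comparison. Of all 18193 genes, 1822 were higher with all mutants and 1145 with mutants 1 and 3, and 6.18% and 5.61% were lower.

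**Figure D3:**
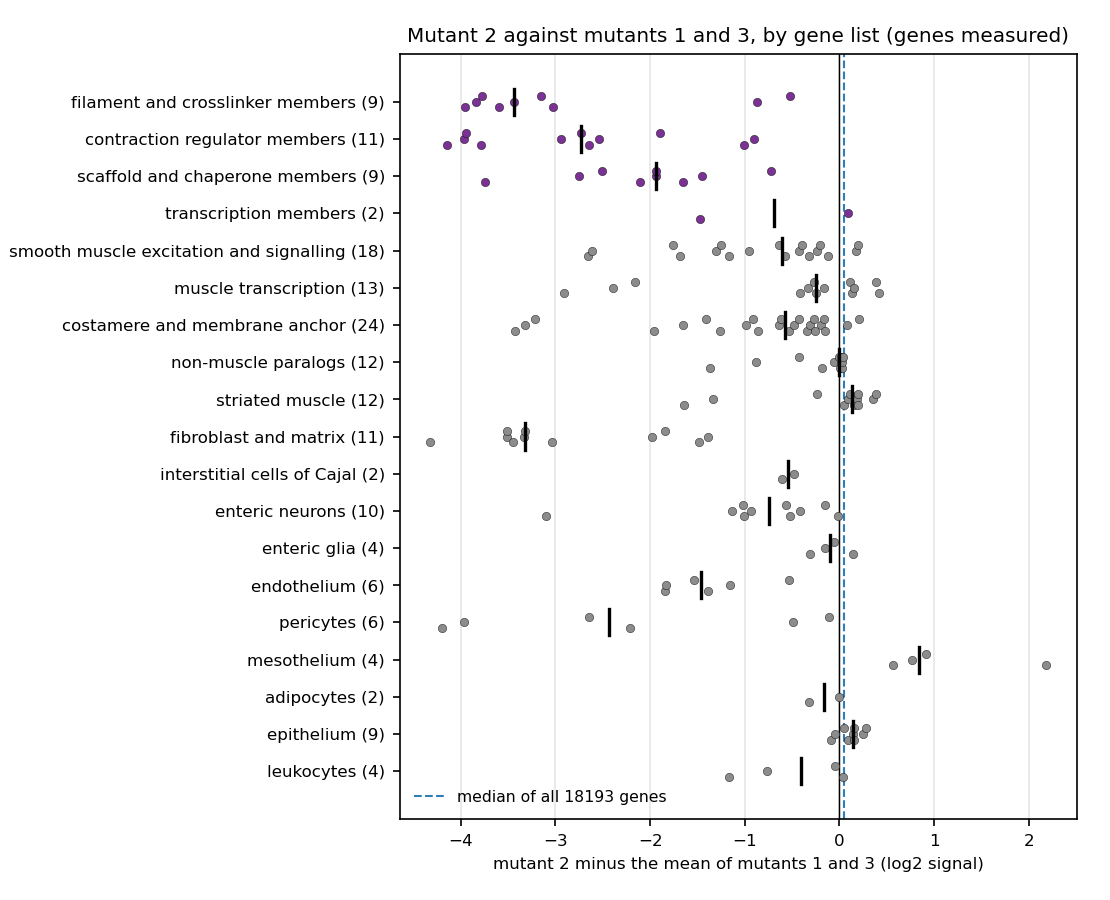
Mutant 2 minus the mean of mutants 1 and 3 (horizontal axis, log2 signal) for each gene of the member roles (purple) and of the other lists (grey), with black bars for list medians and a dashed line for the median of all genes, 0.05. The filament members have a median of -3.44 and the fibroblast markers of -3.32, while the medians of non-muscle paralogs and epithelium lie near 0.

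Markers of other cells were low with the members in mutant 2 as well, and their part in the values was not tested. All 11 fibroblast and matrix markers were measured and all were lowest in mutant 2, with a summed linear signal of 1642 to 11710 in the mutants and of 11750 to 14800 in the controls. The sum in mutant 2 was 12.3% of the control mean. Their medians relative to the controls were -0.29, -3.43 and -0.59 in mutants 1, 2 and 3. The 6 pericyte markers summed to 520.3 to 4477 in the mutants and 4970 to 6330 in the controls, and 5 of the 6 were lowest in mutant 2. Mutant 2 minus the mean of mutants 1 and 3 was -4.20 for Rgs5, -3.96 for Abcc9, -2.65 for Pdgfrb, -2.21 for Kcnj8 and -0.49 for Cspg4, and -0.11 for Notch3, the exception. Notch3 rose in the mutants with a log2 fold change of 1.36 (SE 0.19, limma adjusted p = 0.0417), a call lost with mutant 2 left out (1.40, adjusted p = 0.0969), with mutant 3 left out (1.16, adjusted p = 0.0907), with the replicate block (adjusted p = 0.0642) and with any of the 3 controls left out (adjusted p between 0.0617 and 0.198). The 6 endothelial markers summed to 215.8 to 560.5 in the mutants and 680.8 to 754.1 in the controls, with a median of -1.84 in mutant 2.

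Neural and pacemaker markers were mixed. Of 11 enteric neuron genes 10 were measured, with sums of 424.7 to 925.1 in the mutants and 961.3 to 1325 in the controls, and medians of -0.19, -1.15 and -0.52 in mutants 1, 2 and 3. Vip, the neuropeptide that relaxes gut muscle, had the lowest mutant 2 difference of them, -3.10. The 4 measured glial genes had a median of -0.20 in mutant 2. Kit, which marks the interstitial cells of Cajal that pace the muscle, had a log2 signal of 9.12, 7.86 and 7.81 in mutants 1, 2 and 3, against 8.91, 7.99 and 9.90 in controls 1, 2 and 3. Its low arrays were mutants 2 and 3 and control 2, an order unlike that of the contractile genes.

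Epithelial and mesothelial markers were not low in mutant 2. The 9 epithelial markers summed to 57100 to 61170 in the mutants and 53900 to 60590 in the controls, with a median of 0.18 in mutant 2. The 4 mesothelial markers summed to 156.2, 413.8 and 205.5 in mutants 1, 2 and 3, against 133.9 to 171.4 in the controls. Lrrn4 among them had a log2 signal of 4.65, 7.31 and 5.62 in mutants 1, 2 and 3, against 5.17, 4.64 and 4.79 in controls 1, 2 and 3. The 12 striated muscle markers had a median of 0.17 in mutant 2, and the skeletal myosins Myh1, Myh2 and Myh4 gave 3.31 to 4.35 over the 6 arrays, near the level of absent RNA. Ckm and Actc1, of the same list, had differences of -1.64 and -1.34 between mutant 2 and the mean of mutants 1 and 3. Of the 4 measured leukocyte markers, summed at 239.8 to 360.8 in the mutants and 454.7 to 494.0 in the controls, Ptprc was lowest in mutant 2 (-1.17).

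The choice of probe set changed the size of the difference in mutant 2. The 31 genes had 70 probe sets, and 20 genes had several. Of the 39 probe sets not used, 32 were lower in mutant 2 than in the mean of mutants 1 and 3, but 13 by at least 1 log2 unit, with a median of -0.65, against -2.65 for those used. For Myh11 the second probe set differed by -0.42, against -3.95 for the one used, and for Des by -0.29, against -3.03. The 5 probe sets of Cald1 ran between -4.02 and 0.14. Those of Mylk lay closer together, between -2.98 and -1.91. Both other sets of Pln differed more than the one used, by -1.70 and -1.75, against -0.90. For Srf the second set was at -0.78, against 0.09, so the exception of Srf rests on 1 of its 2 probe sets.

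**Figure D4:**
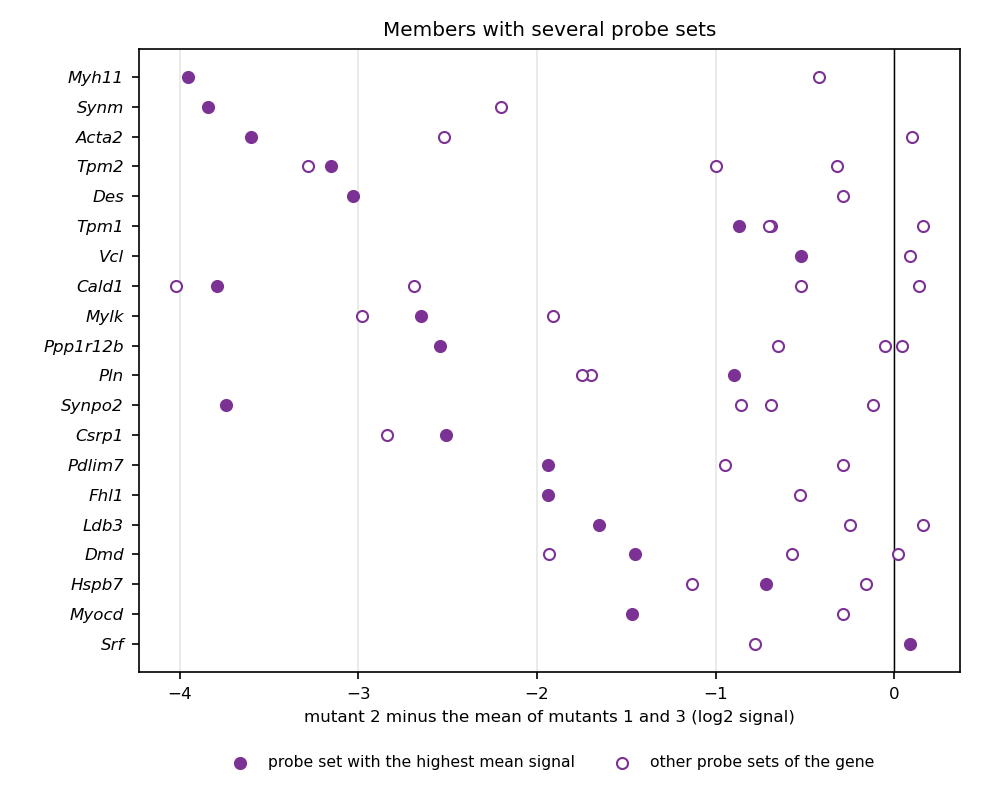
Mutant 2 minus the mean of mutants 1 and 3 (horizontal axis, log2 signal) for every probe set of the 20 members with several; filled circles are the probe sets used and open circles the others. The used sets of Myh11 and Synpo2 lie at -3.95 and -3.74, far left of their other sets, and for Srf the order is turned, 0.09 against -0.78.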

How the data were processed

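Biotin-labelled RNA from each of 6 colons was hybridised to 1 Affymetrix mouse genome array. The deposited values are log2 signals that the authors made with RMA, whose version is not given in the sources used here, and were used as deposited. After 64 control probe sets were left out, 45037 were fitted with limma 3.58.1 in R 4.3.3 (lmFit and eBayes, two-sided, Benjamini-Hochberg adjustment over all probe sets, adjusted p under 0.05), in place of the SAM test that the study's methods name. Probe sets with several gene symbols (932) or none (9160) were not named. The fit was run on all 6 arrays and on the 5 without mutant 2.

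Every member is named. Values in every array are given for core contractile and transcription genes, members that passed, and the 3 largest and 3 smallest differences of mutant 2 from mutants 1 and 3, and other lists give their extremes and genes that passed. Fhl1, Ldb3 and further list genes were added after their values were seen. The members and lists were chosen with earlier results of these data known. Alternatives were a trended and robust prior, array weights, a filter on a mean signal under 5, centring on array medians, other probe set rules, a replicate block, and leaving out each array or the sex chromosomes. The fit was also run on simulated data of 3 arrays against 3, with the spread of the controls in both groups. That setting holds no array like mutant 2 and no comparison of 2 against 3, so it does not bear on either. The number of arrays limits the precision.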

Additional observations from a re-analysis of the deposited data

How the results depend on the processing

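In both comparisons 0 members passed under the alternatives run, replicate block included, except that array weights called 1, Ldb3 (-0.85, adjusted p = 0.0414), in mutants 1 and 3. At an unadjusted p of 0.05 or less, leaving out 1 array gave 3 to 17 members with all mutants. The 17 were without mutant 2, where 5.61% of all genes were lower. With mutants 1 and 3, leaving out 1 control gave 14 to 18. The share of all genes was not counted under the other settings, so these ranges and the call of Ldb3 are no result about the members. Leaving out mutant 1 or 3 in that comparison sets 1 mutant against 3 controls. The lone mutant is then assumed to vary as the controls do, so no count at this threshold is given. The median over the members stayed below 0. With all mutants it was -1.31 with the replicate block, -0.88 with array weights, -1.01 with the mean of all probe sets, and -1.79 to -0.37 with 1 array left out, the last without mutant 2. With mutants 1 and 3 it was -0.38 with the replicate block, and -0.45 to -0.30 with 1 array left out. With array weights, the mean of all probe sets and the replicate block, Synm in mutants 1 and 3 turned to 0.07, 0.03 and 0.12, and it ran between -0.28 and 0.13 with 1 array left out. Pdlim7 turned to 0.07 with the mean of all probe sets and ran between -0.27 and 0.08 with 1 array left out, and Vcl between -0.15 and 0. The cause was not tested. Apart from these and Ldb3, the member fold changes kept their direction and their side of the threshold. Mutants and controls of the same number deviated with correlations of -0.025, 0.252 and -0.15. Those of different number ran between -0.292 and 0.381. With 3 mice per group these values cannot settle whether the numbers pair the mice.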

Other observations

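Outside the lists, the 10 genes with the lowest value of mutant 2 minus the mean of mutants 1 and 3 were an immunoglobulin kappa variable gene (-4.96), Adamdec1 (-4.57), Sparcl1 (-4.38), Bgn (-4.14), Postn (-4.11), Ednrb (-3.99), C1qb (-3.94), Gja1 (-3.90), F2r (-3.90) and Ms4a4d (-3.87). Adamdec1 is a secreted protease of the gut mucosa, and Bgn and Postn encode the matrix proteins biglycan and periostin. Adamdec1 had a log2 signal of 12.19, 7.51 and 11.96 in mutants 1, 2 and 3, against 12.61, 12.54 and 12.74 in controls 1, 2 and 3. C1qb encodes a complement subunit made by macrophages. The immunoglobulin gene, part of an antibody light chain, had 9.94, 5.18 and 10.35 in the mutants, against 10.31, 12.13 and 12.77 in the controls, so that mutants 1 and 3 overlapped the lowest control.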
